A study of Mus musculus with 45 samples.

Results

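CXCL9, CXCL10 and CXCL11 are the interferon-inducible ligands of the chemokine receptor CXCR3, and CCL5 is a CC chemokine whose receptors include CCR1 and CCR3. Their genes, Cxcl9, Cxcl10, Cxcl11 and Ccl5, were taken by name from the 3 deposited count tables, and all 4 were present in each table, out of 56039 gene identifiers in the series and 42929 shared by the 3 tables. The series measured mRNA by RNA sequencing in 45 samples of C57BL/6 mice in 7 groups. Slice microglia were sorted as live CD11b high, CD45 intermediate cells from organotypic brain slices, that is, coronal slices of neonatal brain that had been kept in culture on a membrane for 2 weeks in a medium supplemented with human PDGF. In the last 24 h they received medium only (9 samples), TNF at 50 ng/mL (11 samples) or GM-CSF at 20 ng/mL (9 samples). Adult microglia were sorted by the same gate from female mice of 10 to 15 weeks, 24 h after injection of 1 mg/kg of LPS (4 samples), a bacterial cell wall component, or of PBS (4 samples), and whole brain tissue came from mice of 10 to 15 weeks 24 h after 1 mg/kg of LPS (4 samples) or without treatment (4 samples). Each slice sample pooled 3 slices per the labels, although the study's methods also allow fewer, so that a sample may mix animals, and the controls of the brain tissue were not injected. The slice samples were pooled from 4 independent experiments, but no source says which sample belongs to which experiment or litter, so that p-values measure the spread between these samples.

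The 3 CXCR3 ligands attract activated T cells and NK cells, which carry CXCR3, into inflamed tissue, and CCL5 attracts T cells, monocytes and other leukocytes. Cxcl9 is known chiefly as a target of interferon-gamma, whereas Cxcl10, Cxcl11 and Ccl5 also respond to type I interferon and, through NF-kB and IRF factors, to TNF and to Toll-like receptor ligands such as LPS. In the brain, microglia and astrocytes are known sources of CXCL10 and CCL5 during infection and inflammation.

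The 3 CXCR3 ligand genes lie side by side on the minus strand of chromosome 5 in GRCm38, Cxcl9 (ENSMUSG00000029417) at chr5:92321347-92328079, Cxcl10 (ENSMUSG00000034855) at chr5:92346638-92348889 and Cxcl11 (ENSMUSG00000060183) at chr5:92359544-92365485. Ccl5 (ENSMUSG00000035042) lies on the minus strand of chromosome 11, at chr11:83525778-83530518. GENCODE M21 annotates Cxcl11 as a polymorphic pseudogene and the other 3 as protein coding. The C57BL/6 allele of Cxcl11 is known not to encode a functional chemokine, so that its counts report transcription and not a ligand. On the opposite strand, exons of Art3 share 133 bases with the exons of Cxcl10, and exons of the processed pseudogene Gm2673 share 1582 bases with those of Cxcl11. Whether counting used strand is not given, so that reads within these shared bases cannot be assigned with certainty. Gm2673 had 0 counts in all 29 slice libraries, and Art3 reached at most 6.34 CPM there, where CPM are the usual depth-scaled counts, computed with TMM library sizes. These values do not show how reads within the shared bases were assigned, and levels of Cxcl10 and Cxcl11 per length carry this limit.

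The upstream windows used here, from RefSeq for GRCm38.p6, included none for Cxcl11 or Ccl5. Such windows often hold the elements through which interferon and NF-kB act, and those of Cxcl9 and Cxcl10 are shown. Each covers the 250 bases before the start on the gene's strand, at chr5:92328080-92328329 for Cxcl9 and at chr5:92348890-92349139 for Cxcl10. Capitals mark matches, on either strand, to an interferon-stimulated response element type motif, GAAANNGAA, or to the NF-kB consensus.
Cxcl9: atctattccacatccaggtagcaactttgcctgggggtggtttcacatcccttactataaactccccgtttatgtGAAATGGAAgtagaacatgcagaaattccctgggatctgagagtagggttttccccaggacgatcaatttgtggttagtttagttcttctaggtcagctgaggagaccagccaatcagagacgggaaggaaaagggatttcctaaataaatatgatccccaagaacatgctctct
Cxcl10: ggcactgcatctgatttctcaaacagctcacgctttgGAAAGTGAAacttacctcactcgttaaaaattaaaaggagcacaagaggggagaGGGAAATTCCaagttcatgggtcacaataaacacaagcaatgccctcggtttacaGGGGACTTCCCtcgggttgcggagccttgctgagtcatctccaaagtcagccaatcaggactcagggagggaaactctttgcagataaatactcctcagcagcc
The Cxcl9 window held 1 match to GAAANNGAA, at bases 175 to 167 before the start. The Cxcl10 window held 1 match to GAAANNGAA, at bases 213 to 205, and NF-kB matches at bases 159 to 150 and, on both strands and overlapping each other, between bases 104 and 94. Neither window held the gamma-activated sequence TTCNNNGAA. Of the 32536 distinct windows of this length in the RefSeq table, 7.15% held GAAANNGAA, 7.28% the NF-kB consensus and 7.04% TTCNNNGAA.

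The depth was 5973364 to 9165485 counts per slice library, 11391564 to 14216005 per adult microglia library and 8199863 to 10368578 per brain library. The 8 microglia markers summed to 17129 to 24929 CPM in medium and to 55652 to 62293 CPM in adult PBS microglia. T cell markers summed to 18.8 to 45.4 CPM in medium, 8.59 to 39.4 CPM with TNF and under 1 CPM in every adult microglia library, and NK cell markers to at most 1.85 CPM in any slice library. Cd8a was at 0 in every slice and adult library, Cd3e was at 0 in the adult libraries, and Ncr1 was at 0 in every slice library. Other listed markers differed between the slice groups. Cd3d, Trac, Trbc1 and Trbc2 were at 0 in every medium library and had reads with TNF, and Trac and Trbc2 also with GM-CSF. Klrk1 and Nkg7 likewise had reads with TNF and none in medium. Cd2 and Gzmb had reads in medium and none with TNF.

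Without stimulation Cxcl10 and Ccl5 were the 2 genes of this set counted in all 9 medium libraries. In medium Cxcl10 ran from 2.74 through a median of 10.8 to 18.5 CPM, and Ccl5 from 0.868 through 4.52 to 8.17 CPM. The lowest and the highest medium library were thus several-fold apart for both genes. Cxcl9 had 27 counts in all, in 5 of the 9 libraries, and Cxcl11 had 5 counts, all in 1 library. Divided by exon length, mean levels in medium were 4.57 ± 2.89 (SD, n = 9) CPM per kb for Ccl5, 4.30 ± 2.28 for Cxcl10, 0.135 ± 0.198 for Cxcl9 and 0.0203 ± 0.0608 for Cxcl11. Ccl5 exceeded Cxcl10 in 5 of 9 libraries, so that these neighbours in the order did not differ beyond their spread, whereas Cxcl10 exceeded Cxcl9 in 9 of 9 without overlap.

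The response to TNF was tested against medium with edgeR's quasi-likelihood test, with the threshold for a call set at a fold change over 1.5 and an adjusted p under 0.05. TNF was associated with the highest levels of all 4 genes in the slice microglia, and each of them was called higher, as were 9.10% of the 11313 genes tested. Cxcl9 and Cxcl11 passed the filter on low counts through the TNF libraries alone, so that their calls add nothing as a count. Cxcl10 ran from 494 through a median of 536 to 668 CPM with TNF. No TNF library came near the medium range of Cxcl10, and the spread between the 11 libraries was small, with a coefficient of variation of 12%. The log2 fold change of Cxcl10 was 5.84 ± 0.26 (SE; fold change 57.3, edgeR adjusted p = 8.02e-16). Ccl5 ran from 80.5 through 113 to 237 CPM with TNF, with 11 of 11 libraries above every medium library. It varied more between TNF libraries than Cxcl10, with a coefficient of variation of 39.7%. Its log2 fold change was 4.90 ± 0.38 (95% confidence interval 4.14 to 5.67, edgeR adjusted p = 2.98e-11).

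Cxcl11 was almost undetected in medium and counted in every TNF library. Its counts with TNF ran from 50 to 169 in the 11 libraries, 1151 in all, against the 5 counts of 1 medium library. In CPM the TNF libraries ran from 7.95 through 15.3 to 23.8. Scaled by library size, the summed counts were 203-fold higher with TNF (95% counting interval 86.7 to 626, which covers counting error only), and the edgeR adjusted p was 9.76e-12. A fitted fold change of Cxcl11 depends on the prior count and is not given. Cxcl9, the least abundant of the 4 genes with TNF, ran from 1.79 through 3.02 to 9.73 CPM with TNF against 0 to 1.59 CPM in medium. The groups did not overlap, but the margin was narrow. The log2 fold change was 3.31 ± 0.65 (fold change 9.95, edgeR adjusted p = 1.22e-04).

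With TNF the order of the levels per length was Cxcl10 (249 ± 30 CPM per kb, SD, n = 11), Ccl5 (137 ± 54.6), Cxcl11 (3.97 ± 1.28) and Cxcl9 (1.38 ± 0.850). Each step of this order held in 11 of 11 libraries. The ranges over libraries still overlapped between Cxcl10 and Ccl5 and between Cxcl11 and Cxcl9. The slice titles carry the codes 1A, 1B, 2A and 2B, whose meaning the labels do not give. Mean Cxcl10 with TNF was 557 ± 58.7 CPM in the 6 libraries coded 1A or 1B and 567 ± 83.9 CPM in the 5 coded 2A or 2B. Over 32 alternative settings, which include a fit of either pair of codes, the log2 fold change of Cxcl10 ran from 5.52 to 6.18. Beside these changes, the microglia markers summed to 8639 to 11819 CPM with TNF, below the medium range. Neutrophil markers ran from 3.57 to 125 CPM with TNF and from 0.834 to 15.8 CPM in medium. Of the 3 T cell markers tested with TNF, Lck was called higher (log2 fold change 2.38 ± 0.78) and Cd28 (-2.20 ± 0.72) and Cd4 (-0.77 ± 0.29) lower. Their part in the result was not tested.

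**Figure D1:**
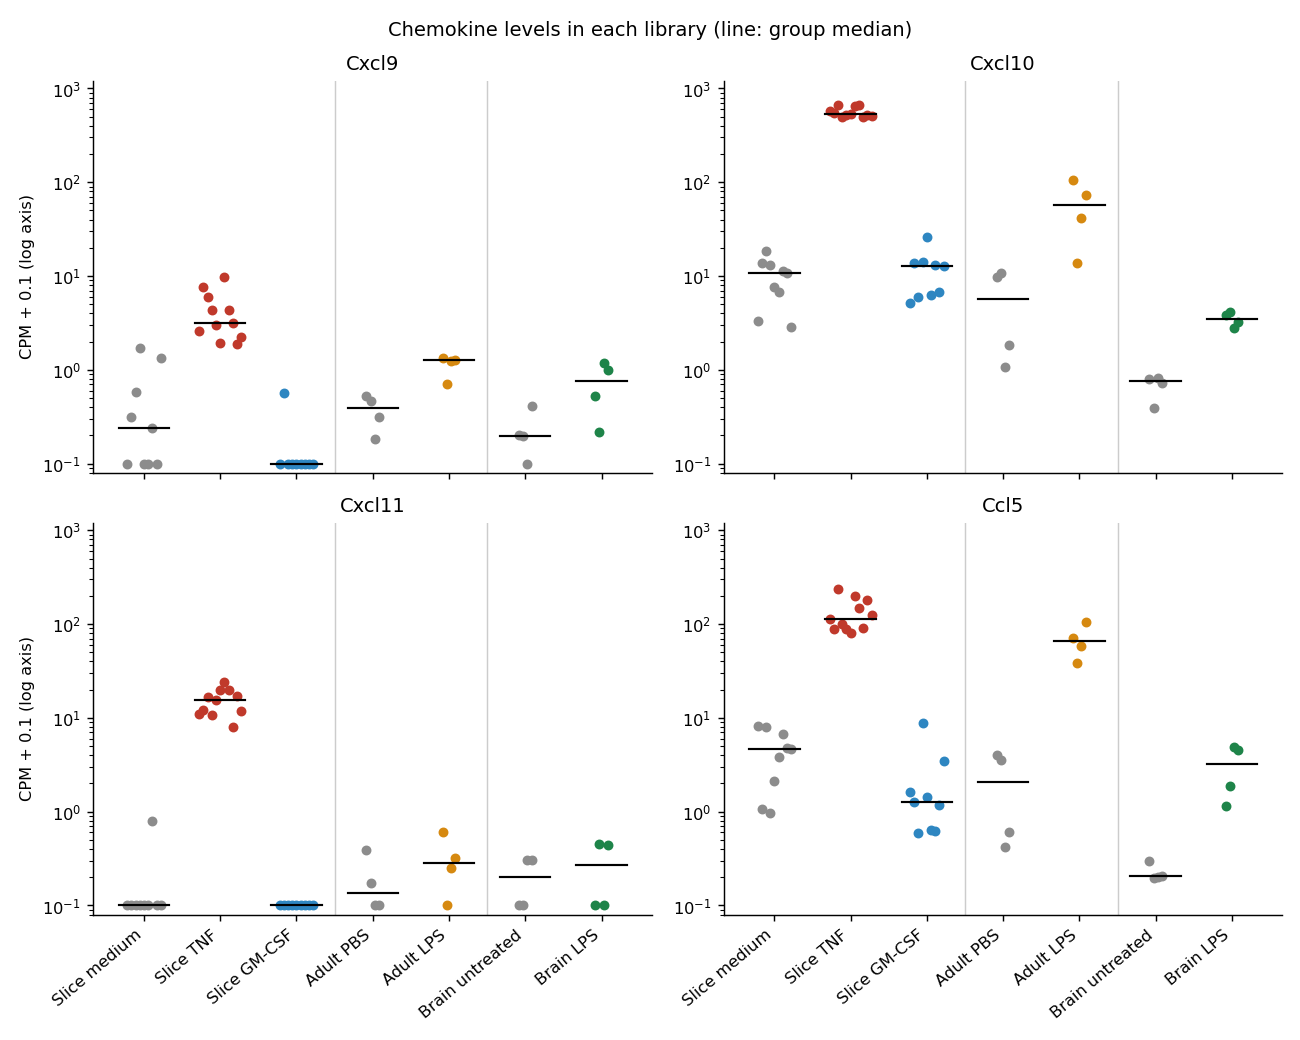
Levels of Cxcl9, Cxcl10, Cxcl11 and Ccl5 in each of the 45 libraries, as CPM plus 0.1 on a log axis, by group, with a line at the group median. Grey lines part the 3 tables, which were normalized separately. The 11 TNF libraries lie above every medium library in each panel, and GM-CSF libraries lie in or below the medium range except for 1 library of Cxcl10 and 1 of Ccl5.

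GM-CSF, tested against the same medium libraries, left Cxcl10 within its medium range and gave no call for Ccl5 or Cxcl11. Cxcl10 ran from 5.09 through 12.7 to 26.2 CPM. Of the 9 GM-CSF libraries, 8 lay within the medium range. The log2 difference was 0.22 ± 0.29 (SE; 95% confidence interval -0.38 to 0.82, edgeR adjusted p = 0.649), and it was -0.36 in the libraries coded 1A or 1B and -0.03 without GM-CSF replicate 5, the highest library. Ccl5 ran from 0.491 through 1.18 to 8.71 CPM, with 3 of 9 libraries below every medium library and 1 above every one. The log2 difference was -1.14 ± 0.50 (95% confidence interval -2.16 to -0.12) and missed the threshold (edgeR adjusted p = 0.0902). The value turned on single libraries. Without GM-CSF replicate 4, which held the highest level, Ccl5 was called lower (log2 difference -1.82, edgeR adjusted p = 0.00299), as it was without medium replicate 2 (-1.29, edgeR adjusted p = 0.0496).

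Cxcl9 was the only one of the 4 genes called lower with GM-CSF, against 5.96% of all genes called lower and 4.84% called higher. It had 4 counts, all in 1 of 9 GM-CSF libraries, against the 27 counts in 5 of 9 medium libraries. The log2 difference was -2.52 ± 1.13 (95% confidence interval -4.81 to -0.22, edgeR adjusted p = 0.0365). The call was lost in 11 of the 18 fits that left out 1 library, namely each of GM-CSF replicates 1 and 3 to 9 and of medium replicates 3, 4 and 9, where the adjusted p reached 0.129, and it was lost without the filter on low counts (edgeR adjusted p = 0.0549). Cxcl11 had 0 counts in all 9 GM-CSF libraries, against 5 in medium (edgeR adjusted p = 0.0822), so that a difference was not detectable at this depth. Microglia markers summed to 11670 to 13707 CPM with GM-CSF, below the medium range. T cell markers summed to 8.71 to 24.8 CPM, with Cd4 called lower (log2 fold change -1.14 ± 0.31), and neutrophil markers to 3.19 to 42.8 CPM. Border macrophage and monocyte markers summed to 178 to 434 CPM against 219 to 632 CPM in medium, with Ms4a7 called lower (-1.79 ± 0.32). Their part in these values was not tested.

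In the direct comparison with GM-CSF, Cxcl10 and Ccl5 were higher with TNF, where 8.25% of genes were called higher. Cxcl9 and Cxcl11 were called as well, but entered this test through the TNF libraries alone. The log2 difference was 5.62 ± 0.25 for Cxcl10 (edgeR adjusted p = 1.69e-15), 6.04 ± 0.44 for Ccl5 (edgeR adjusted p = 3.05e-12) and 5.83 ± 1.07 for Cxcl9 (edgeR adjusted p = 6.21e-07). For Cxcl11 the summed counts were at least 348-fold higher with TNF, with GM-CSF set at the floor of 3 counts over the group.

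The response to LPS in vivo was tested in adult microglia against PBS. Ccl5 and Cxcl10 both rose, while Cxcl9 and Cxcl11 had too few counts to pass the filter. Of the 12987 genes tested 14.4% were called higher. In LPS replicates 1 to 4, Ccl5 stood at 71.7, 38.1, 58.8 and 106 CPM. In PBS replicates 1 to 4 it stood at 3.95, 3.45, 0.322 and 0.505 CPM. Every LPS library lay above every PBS library, and PBS replicates 1 and 2 lay above replicates 3 and 4. The log2 fold change of Ccl5 was 5.03 ± 0.68 (SE; fold change 32.7, edgeR adjusted p = 4.98e-04). Ccl5 had 55, 48, 4 and 7 counts in PBS replicates 1 to 4 and so passed the filter through the LPS libraries.

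Cxcl10 stood at 107, 13.7, 41.1 and 73.8 CPM in LPS replicates 1 to 4. In PBS replicates 1 to 4 it stood at 9.55, 10.8, 0.966 and 1.73 CPM. The groups did not overlap, but LPS replicate 2 lay close to PBS replicate 2. The log2 fold change of Cxcl10 was 3.34 ± 0.85 (95% confidence interval 1.33 to 5.35, edgeR adjusted p = 0.0147), and it ran from 2.87 to 3.83 with 1 library left out. The summed level of the 20 type I interferon targets described below was likewise lowest in replicate 2 of the LPS group, at 1675, 487, 1305 and 1557 CPM in LPS replicates 1 to 4. In PBS replicates 1 to 4 that sum was 400, 434, 305 and 355 CPM. Microglia markers summed to 36595 to 41788 CPM with LPS, below the PBS range, and border macrophage and monocyte markers to 17.1 to 26.2 CPM against 19.5 to 25.7 CPM with PBS. Within the latter list Mrc1 was called higher (log2 fold change 0.64 ± 0.20), Ccr2 (-0.81 ± 0.18) and Chil3 (-4.24 ± 0.76) lower, and Plac8 was not called. Neutrophil markers, at 1.61 to 7.80 CPM with LPS, were below their PBS range of 32.6 to 69.6 CPM. So were endothelial markers (10.2 to 13.7 against 28.9 to 36.3 CPM), astrocyte markers (147 to 182 against 255 to 281 CPM) and oligodendrocyte markers (21.4 to 32.2 against 34.3 to 48.1 CPM). Neuron markers overlapped (0.771 to 1.69 against 0.861 to 1.44 CPM). The part of these cells in the result was not tested.

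Cxcl9 in adult microglia had 17, 7, 15 and 16 counts in LPS replicates 1 to 4 and 6, 5, 1 and 3 counts in PBS replicates 1 to 4. The counts were low, with all 4 LPS libraries above all PBS libraries in CPM. In the fit without the filter its log2 fold change was 1.87 (edgeR adjusted p = 0.00598). Cxcl11 had 12 counts over the LPS libraries and 5 over the PBS libraries, and in that fit it was not called (edgeR adjusted p = 0.437). With LPS, Cxcl9 and Cxcl11 stood at mean levels of 1.04 ± 0.297 and 0.221 ± 0.214 CPM (SD, n = 4).

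**Figure D2:**
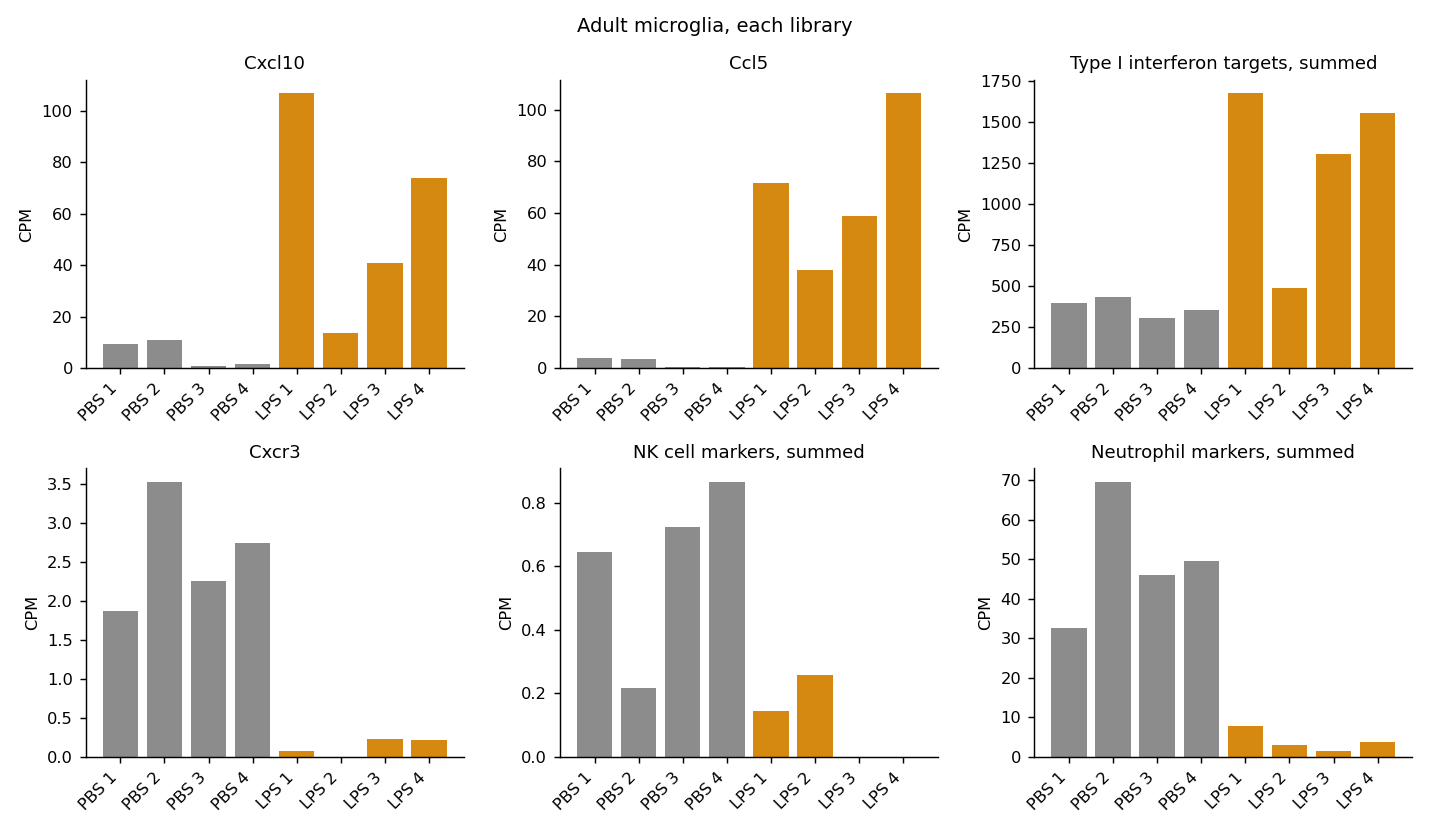
CPM of Cxcl10, Ccl5 and Cxcr3 and summed CPM of the type I interferon targets, the NK cell markers and the neutrophil markers in the 4 PBS (grey) and 4 LPS (orange) libraries of adult microglia, each on a linear axis from 0. LPS replicate 2 is the lowest LPS library for Cxcl10, Ccl5 and the interferon targets, and Cxcr3 and the neutrophil markers are lower in every LPS library than in any PBS library.

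In whole brain tissue, LPS was compared with no treatment. Ccl5 and Cxcl10 again rose, from levels close to the detection limit, where 2.63% of the 15083 genes tested were called higher and 0.550% lower. Both passed the filter through the LPS libraries alone, and in bulk tissue a change in the number of cells that express a gene and a change per cell cannot be told apart. Cxcl10 had 35, 34, 22 and 28 counts in LPS replicates 1 to 4, or 3.69, 4.01, 2.66 and 3.15 CPM. It had 7, 3, 7 and 6 counts in the untreated replicates, or 0.704, 0.292, 0.724 and 0.627 CPM. The LPS libraries were close to each other and all above the untreated ones. The log2 fold change was 2.51 ± 0.32 (fold change 5.69, edgeR adjusted p = 5.28e-05).

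Ccl5 had 10, 15, 40 and 40 counts in LPS replicates 1 to 4, or 1.05, 1.77, 4.83 and 4.49 CPM. It had 2, 1, 1 and 1 counts in the untreated replicates, or 0.201, 0.0972, 0.103 and 0.104 CPM. Replicates 3 and 4 were the higher LPS libraries, and no LPS library overlapped with the untreated ones. The log2 fold change was 4.43 ± 0.95 (edgeR adjusted p = 8.94e-04). Its counting interval is wide, since the summed counts of 105 and 5 give a ratio of 23.6 (95% interval 9.79 to 74.2). Cxcl9 had 22 counts with LPS and 5 without, and without the filter it missed the threshold (log2 difference 2.18, edgeR adjusted p = 0.0751). Cxcl11 had 6 counts with LPS and 4 without. Beside these changes, border macrophage and monocyte markers summed to 8.65 to 9.81 CPM with LPS against 4.52 to 5.35 CPM untreated, neutrophil markers to 3.06 to 7.53 against 0.503 to 1.03 CPM, and endothelial markers to 306 to 351 against 232 to 246 CPM, while microglia markers overlapped (231 to 380 against 279 to 320 CPM). T cell markers were no higher with LPS (17.9 to 22 CPM) than without (22 to 25.1 CPM). Their part in the result was not tested.

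The LPS effects in adult microglia and brain tissue were compared by an interaction over the 16 in vivo samples. In these, tissue, library kit and kind of control (PBS injection or no treatment) coincide and cannot be told apart. None of the 3 chemokine genes tested was called, where 9.10% of all genes were called higher and 10.6% lower. The effect in microglia minus that in tissue was 0.57 on the log2 scale for Ccl5 (95% confidence interval -4.14 to 5.29), 0.81 for Cxcl10 (-2.82 to 4.45) and -0.33 for Cxcl9 (-2.42 to 1.75). These intervals are wide, so that differences of several log2 units in either direction were not detectable in this joint fit. It estimated the spread of each gene over both tissues, with standard errors of 2.18 for Ccl5 and 1.68 for Cxcl10. In the separate fits of microglia and of tissue they were 0.68 and 0.95 for Ccl5 and 0.85 and 0.32 for Cxcl10.

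**Figure D3:**
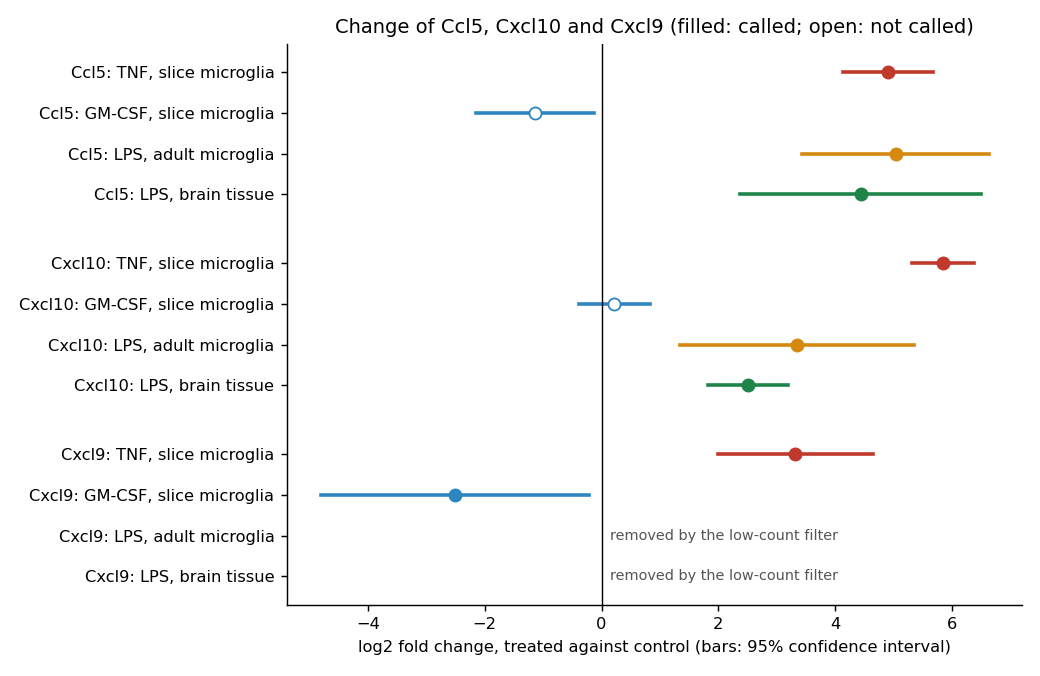
Log2 fold changes of Ccl5, Cxcl10 and Cxcl9 in the 4 treatments with their 95% confidence intervals from edgeR, filled where the gene was called and open where it was not. Cxcl11 is not drawn because its fitted value depends on the prior count. The intervals for TNF and LPS lie above 0, and those for GM-CSF lie at or below 0 or across it.

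The ratio of Cxcl10 to Ccl5 was set out within each table, and it was not compared between tables. Per kb of exon, Cxcl10 exceeded Ccl5 in 11 of 11 TNF libraries, with a ratio from 1.2 through a median of 2.09 to 2.84. In adult microglia the ratio ran from 1.03 to 1.46 with PBS and from 0.153 to 0.635 with LPS. Ccl5 was thus the higher of the pair in all 4 LPS libraries of adult microglia and the lower in all 4 PBS libraries, without overlap of the ratio. In brain tissue the ratio ran from 1.28 to 2.98 untreated and from 0.234 to 1.49 with LPS, where 1 of 4 libraries stayed above 1. The untreated ratios rest on 1 to 2 counts of Ccl5 and 3 to 7 of Cxcl10 per library, so that single reads move them strongly. Medium libraries scattered from 0.168 to 6.32, a range that spans the TNF libraries, and GM-CSF libraries from 0.681 through a median of 4.90 to 10.4, with 8 of 9 above 1. These ratios were looked at after the levels were known and carry no test. Mean levels with LPS in adult microglia were 71.6 ± 29.8 CPM per kb for Ccl5 and 26.1 ± 17.9 for Cxcl10 (SD, n = 4). In brain tissue they were 3.16 ± 1.98 for Ccl5 and 1.5 ± 0.265 for Cxcl10.

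**Figure D4:**
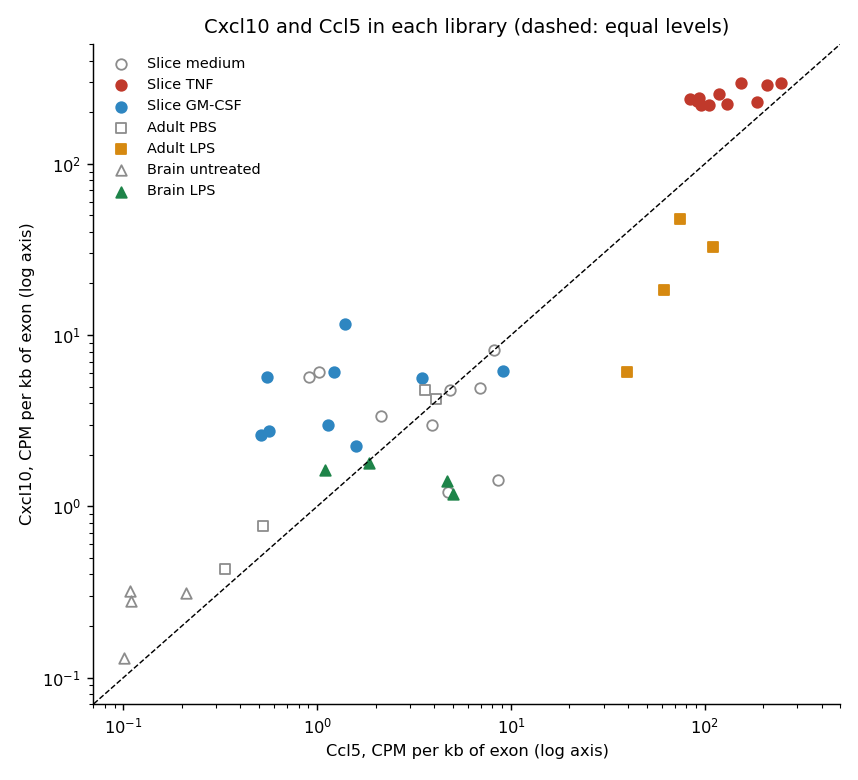
Cxcl10 against Ccl5 in each of the 45 libraries, both as CPM per kb of exon on log axes, with a dashed line at equal levels. The 11 TNF libraries lie above the line, the 4 LPS libraries of adult microglia below it and the 4 PBS libraries just above it.

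Within the 3 CXCR3 ligands, Cxcl10 held nearly all of the signal per length in every microglia group. Its share was 97.9 ± 0.501% (SD, n = 11) with TNF, 95.4 ± 8.22% (n = 9) in medium and 99.7 ± 0.830% (n = 9) with GM-CSF. The share was 98 ± 0.929% with LPS and 94.5 ± 2.38% with PBS in adult microglia, and 85.0 ± 8.78% with LPS and 79.9 ± 11.6% untreated in brain tissue (n = 4 each). None of the 4 comparisons passed, with adjusted p from 0.140 to 0.514 in exact two-sided permutation tests over samples, where 4 against 4 cannot give an unadjusted p under 0.0286. In medium the lowest share was 74.8%, in replicate 9, where Cxcl10 had 20 counts and Cxcl9 had 9.

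The receptors of these chemokines were examined in the same libraries. Cxcr3 fell in adult microglia with LPS, where 13.0% of genes were called lower. It passed the filter on low counts through the PBS libraries alone, so that its call adds nothing as a count. It had 26, 49, 28 and 38 counts in PBS replicates 1 to 4 and 1, 0, 3 and 3 counts in LPS replicates 1 to 4. The groups were far apart, at 2.60 ± 0.713 CPM with PBS and 0.131 ± 0.113 CPM with LPS (SD, n = 4), and the log2 fold change was -4.18 ± 0.62 (edgeR adjusted p = 3.58e-05). The 10 NK cell markers, a population known for CXCR3, summed to 33 counts over the PBS libraries and 5 over the LPS libraries, or 0.216 to 0.865 and 0 to 0.257 CPM, with 9 of 10 markers at 0 in every LPS library. The part of these cells in the fall of Cxcr3 was not tested. T cell markers did not move with it, at 0.242 to 0.719 CPM with PBS and 0.219 to 0.856 CPM with LPS. In slice microglia Cxcr3 was sporadic, with reads in 6 of 9 medium libraries, in 1 of 11 TNF libraries and in 2 of 9 GM-CSF libraries, and it did not pass the filter. In brain tissue it had 2 counts in all.

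Ccr1, a receptor for CCL5, rose with GM-CSF (log2 fold change 1.24 ± 0.12, edgeR adjusted p = 4.72e-10) and with LPS in adult microglia (1.57 ± 0.11, edgeR adjusted p = 8.92e-07). In adult microglia Ccr3 fell (-2.38 ± 0.45, edgeR adjusted p = 6.22e-04) and the scavenger receptor Ackr3 rose (1.19 ± 0.30, edgeR adjusted p = 0.00563). At a minimum count of 30, 0 receptors were called lower there. Of all genes, 4.84% were called higher with GM-CSF, 14.4% in adult microglia and 2.63% in brain tissue, and 13.0% were called lower in adult microglia. Of the 6 receptors listed, 2 were tested in slices, 4 in adult microglia and 3 in brain tissue, where 0 were called.

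The 6 interferon genes listed (Ifng, Ifnb1, Ifna1, Ifna2, Ifna4 and Ifna5) were almost without reads. Other interferon genes were not examined. The slice and adult libraries hold sorted microglia, with some reads of other cells' markers, so that interferon mRNA of cells outside the sort was not measured there. Ifng had 3 counts in 1 TNF library, 1 count in 1 untreated brain library and 0 in the other 43 libraries. Ifnb1 had 9 counts over the TNF libraries, 3 in medium and 3 with GM-CSF, and 4 counts in 1 adult LPS library, 1 count in each of 3 adult PBS libraries and 1 count in 1 brain LPS library. None of the 6 interferon genes listed passed the filter in any table. A difference in their mRNA between groups was not detectable at this depth. Of the 4 interferon receptor chains, all of which were tested in every table, Ifnar1 rose with TNF (log2 fold change 0.68 ± 0.10), and Ifngr1 fell with TNF (-0.73 ± 0.07), where 11.7% of genes were called lower, and with GM-CSF (-0.78 ± 0.07), and none was called with LPS in microglia or in brain tissue.

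The list of transcription factors known to act on these chemokine genes held more calls higher than lower with TNF and LPS, and more lower than higher with GM-CSF. The shares of all genes called higher and lower were 9.10% and 11.7% with TNF, 4.84% and 5.96% with GM-CSF, 14.4% and 13.0% with LPS in adult microglia and 2.63% and 0.550% in brain tissue. With TNF, 7 of 14 regulators were called higher and 1 lower, led by Irf7 (log2 fold change 4.49 ± 0.20), Stat2 (2.30 ± 0.14) and Nfkb2 (1.84 ± 0.13), with Jun the one called lower (-0.69 ± 0.14). Irf1, an inducible activator of Cxcl9 and Cxcl10, rose by 1.35 ± 0.14. With GM-CSF 1 was called higher, Cebpb (1.04 ± 0.08), and 6 lower, among them Irf7 (-1.22 ± 0.24), Rel (-0.96 ± 0.26), Nfkb1 (-0.82 ± 0.14) and Irf1 (-0.78 ± 0.15). Irf1 was not called with GM-CSF in codes 2A and 2B (-0.44). With LPS in adult microglia 6 were called higher, led by Irf7 (2.58 ± 0.51), Cebpb (1.57 ± 0.13) and Stat2 (1.54 ± 0.24), and Nfkb1 was called lower (-0.94 ± 0.07). Irf1 was 0.28 ± 0.09 higher there, under the fold limit. In brain tissue 6 were called higher and 0 lower, with Irf7 (3.14 ± 0.17), Nfkb2 (1.13 ± 0.16) and Irf9 (1.06 ± 0.10) leading and Irf1 at 0.72 ± 0.17, which fell to 0.52 without LPS replicate 3. Median log2 changes of the 14 were 0.47, -0.53, 0.19 and 0.46 in these comparisons in turn, beside -0.03, -0.04, 0.01 and 0.00 over all genes.

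Other cytokines that can induce these chemokines were listed as well. With TNF, where 9.10% of all genes were called higher, 5 of the 5 tested of 7 were, led by Il6 (log2 fold change 4.45 ± 0.29), Il1b (3.70 ± 0.20) and Il27 (2.94 ± 0.66), and with GM-CSF (4.84% of all genes) 2 were, Il6 (3.84 ± 0.30) and Il1b (1.49 ± 0.21). In adult microglia with LPS (14.4% of all genes) 3 of 6 were called higher, Il1b (4.89 ± 0.46), Il12b (4.27 ± 0.81) and Tnf (4.18 ± 0.60), and Il6 was called lower (-2.07 ± 0.42). In brain tissue 1 was tested and 0 were called. The count called higher with TNF ran from 4 to 5 over the alternative settings. Whether these cytokine genes passed the filter on low counts through 1 group alone was not examined, so that the counts of calls carry this limit.

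Genes known to share interferon control with the chemokines gave the context of each change. Of 20 type I interferon targets, such as the Ifit and Oas genes of antiviral defence, 20 were called higher with TNF (median log2 fold change 4.13, against 9.10% of all genes called higher), led by Oas2 (8.23 ± 2.12), Cmpk2 (5.04 ± 0.29) and Oasl1 (4.89 ± 0.38). With LPS 19 of 19 tested were called higher in adult microglia (median 2.18, against 14.4%), led by Oasl1 (3.84 ± 0.76), Oas2 (3.35 ± 0.59) and Oasl2 (3.15 ± 0.67), and 18 of 20 in brain tissue (median 2.02, against 2.63%), led by Oas1a (2.60 ± 0.49), Ifi44 (2.48 ± 0.32) and Oasl1 (2.42 ± 0.41). With GM-CSF 13 of 20 were called lower (median -0.92, against 5.96%) and 1 higher (against 4.84%), Oas2 (4.06 ± 2.15). The count called lower was 7 in title codes 1A and 1B, and the 1 called higher was lost there, with only the 2 groups compared and with limma-voom. The lowest values with GM-CSF were those of Mx1 (-3.09 ± 0.71), Rtp4 (-2.12 ± 0.23) and Ifit3 (-1.54 ± 0.35). Of 22 targets more typical of interferon-gamma, such as the guanylate-binding proteins, 19 of 19 tested were called higher with TNF (median 2.23, against 9.10%). They were led by Gbp4 (7.53 ± 1.81), Gbp2 (5.67 ± 0.30) and Gbp6 (5.30 ± 0.60). With LPS 12 of 19 were called higher in adult microglia (median 1.00, against 14.4%), led by Gbp2 (1.99 ± 0.32), Gbp7 (1.65 ± 0.07) and Cd274 (1.52 ± 0.28). In brain tissue 16 of 21 were called higher (median 1.51, against 2.63%), led by Tgtp2 (3.17 ± 0.63), Ifi47 (2.43 ± 0.29) and Gbp2 (2.25 ± 0.41). With GM-CSF 6 of 19 were called higher (median -0.04, against 4.84%), led by Gbp4 (4.93 ± 1.83), Gbp7 (4.01 ± 0.26) and Gbp3 (2.55 ± 0.21). Called lower were 2 (against 5.96%), Irgm1 (-0.84 ± 0.15) and Irgm2 (-0.60 ± 0.16). That count of 2 ran from 0 to 4 over the alternatives. Oas2 and Gbp4 averaged 0.0132 and 0.0166 CPM in medium, so that their fitted values depend on the prior count and give no bound. Both passed the filter on low counts through treated libraries and not through medium, so that their calls add nothing as a count. Whether other listed targets did so was not examined. The chemokine modifier Sdc4, a heparan sulfate proteoglycan that can hold chemokines at the cell surface, rose with TNF (1.00 ± 0.08) and in adult microglia with LPS (1.06 ± 0.32), and Dpp4, a protease that can trim CXCL10, had 0 counts in every microglia library.

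**Figure D5:**
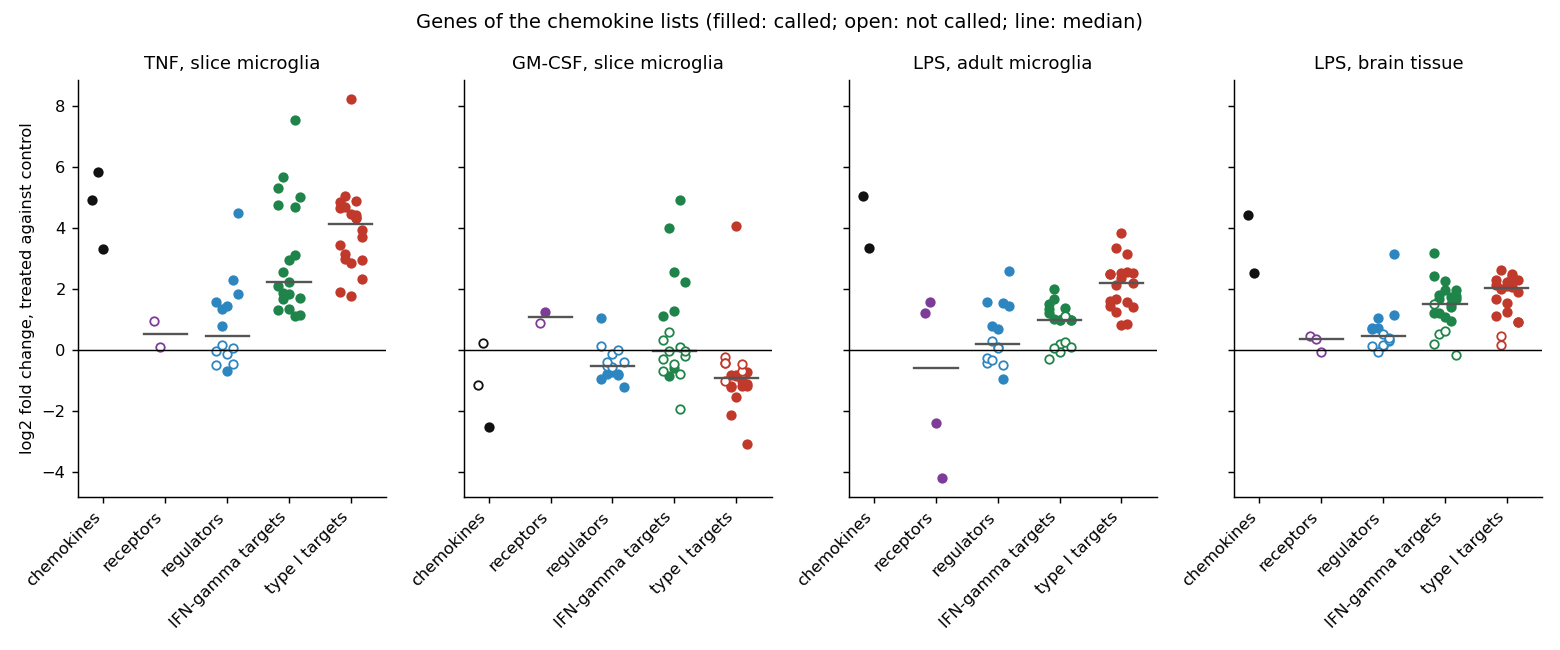
Log2 fold changes of the chemokines other than Cxcl11, their receptors, their regulators and the interferon target lists in the 4 treatments, 1 point per tested gene, filled where called, with a line at the median of each list of receptors, regulators or targets. Type I targets lie above 0 for TNF and both LPS comparisons and mostly below 0 for GM-CSF.

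The genes with patterns most like each chemokine were found by the smallest Euclidean distance over the log2 fold changes of the treatments in which it was tested. For Cxcl10, over 4 treatments and 9700 genes, these were Oasl1 (distance 1.28), Gbp2 (1.43) and Ifit1 (1.61). For Ccl5, over the same 4 treatments, they were Zbp1 (1.35), Ifi211 (1.5) and Ch25h (1.81). For Cxcl9 and Cxcl11 the 2 slice treatments could be used, over 11313 genes. Cxcl9 was nearest to Samd9l (0.36), Lrrc4 (0.39) and Marco (0.46), and Cxcl11 to Gm6545 (1.91), Oas3 (1.96) and Ly6i (2.00), the last on fitted values that depend on the prior count. The value of Cxcl9 with GM-CSF ran from -4.62 to -1.92 with 1 library left out, a wider range than these distances, so that its nearest genes are not settled.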

How the data were processed

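RNA sequencing of 29 slice microglia, 8 adult microglia and 8 brain tissue samples was analysed. Per the labels and methods, sorted microglia were amplified with a SMART-Seq v4 kit and made into Nextera XT libraries, and brain libraries were made with a TruSeq mRNA kit, so that levels were compared within a table and not across tables. The authors deposited whole-number read counts per gene for slice microglia, made with STAR 2.7.0a and featureCounts (Subread 1.6.4 is also named in the submitters' processing notes), and deposited expected counts, not normalized, for adult microglia and brain tissue, with tools not given in the sources used here. The genome build was mm10. The 70872 adult and 69680 brain values that were not whole were rounded, and 92 brain rows that name no gene, with 0 counts, were left out. Per-sample columns without a sample numbered 0.

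Symbols and exon lengths came from GENCODE M21 (GRCm38). Tests on counts used edgeR 4.0.16 under R 4.3.3, in its quasi-likelihood form (TMM, robust, minimum count 10, minimum total 15), with Benjamini-Hochberg adjustment over all genes tested, and called at an adjusted p under 0.05 and a fold change over 1.5, the study's thresholds. The 29 slice samples shared a fit, and adult microglia and brain tissue were fitted alone and, for the interaction, jointly. Standard errors are quasi-likelihood standard errors of the log2 fold change. The share of Cxcl10 was compared by exact permutation over samples. The scripts were tested on simulated data. The genes named were the 4 chemokines in every comparison, Cxcr3, Ifng, Ifnb1 and Irf1, and up to 3 called genes with the highest and the lowest log2 fold change of each list described by gene. The members and lists were chosen with earlier results of these data known, and some genes of the lists are not reported here and were left out of their counts. Replicate numbers in the labels come without a statement of shared origin. Alternatives used DESeq2 1.42.0 and limma 3.58.1. Intervals on counts cover counting error only, as the libraries carry no molecular identifiers.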

Additional observations from a re-analysis of the deposited data

Results flagged for a closer look

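In groups of 4 to 10 samples, a library was flagged where its gap to the nearest other library exceeded Dixon's 95% critical share of the group's range. Of 23 groups tested over the 4 genes 6 gave a flag. A chance rate of about 1 in 20 holds for normally distributed values and not for counts near 0, so that it is no yardstick here. Where only 1 library of a group had counts, the gap equals the range and the flag was fixed in advance. In adult microglia, Cxcl9 stood at 0.599 CPM in LPS replicate 2, below the next LPS library at 1.15 CPM. With GM-CSF, Ccl5 stood at 8.71 CPM in replicate 4, where the next library had 3.35 CPM, and Cxcl10 at 26.2 CPM in replicate 5, where the next had 13.9 CPM. Cxcl9 was at 0.470 CPM in GM-CSF replicate 2 and Cxcl11 at 0.693 CPM in medium replicate 7, while every other library of the same group had 0. In untreated brain tissue, Ccl5 was at 0.201 CPM in replicate 1, from 2 counts, where the others had 1 count each.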

How the results depend on the processing

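Calls of Cxcl10 and Ccl5 with TNF, against medium and against GM-CSF, held in every alternative, including each library left out, either pair of title codes and DESeq2. Those of Cxcl9 and Cxcl11 were not lost where tested, but both entered through the TNF libraries. Same-numbered samples were not taken as pairs, since correlations of their deviations ran from -0.078 to 0.184 and were over 0.1 in 4 of 9 pairs for TNF against medium (replicates 1 to 4), 2 of 9 for GM-CSF against medium and 0 of 4 in adult microglia and in brain tissue. In the fit with a replicate block the call of Cxcl10 with LPS in adult microglia was lost (log2 fold change 3.34, adjusted p = 0.0835, leaving 1 of the 4 genes called higher), as was that of Cxcl9 with GM-CSF (-2.39, adjusted p = 0.0623, leaving 0 called lower), and no other call of the 4 genes changed. The type I targets called higher with LPS in adult microglia numbered 11 with the block. For Cxcl9 with GM-CSF the log2 difference was -2.50 without the low-count filter, -2.04 with title codes 1A and 1B only, -4.05 with 2A and 2B only and -1.46 with limma-voom (adjusted p 0.0549, 0.244, 0.133 and 0.260), and the gene was not tested with only the 2 groups compared or at a minimum count of 30, so that 0 genes were called lower in these fits, except with 2A and 2B, where Ccl5 was (-1.66, adjusted p = 0.0109) and 785 genes were called in all. Leaving out 1 library moved Cxcl9 with GM-CSF between -4.62 and -1.92, Ccl5 between -1.82 and -0.98, Cxcl10 between -0.033 and 0.40 and the count called lower between 0 and 2. Cxcl10 with GM-CSF was -0.36 in codes 1A and 1B. At a minimum count of 30, 0 of the 4 genes were tested in brain tissue. The interaction of Cxcl9 ranged from -1.15 to 0.046 with 1 library left out and turned positive, at 0.031 and 0.046, without brain LPS or untreated replicate 3. The share of Cxcl10 turned to -0.080 points for TNF without medium replicate 9 (range to 3.06) and to -0.28 points in brain tissue without untreated replicate 4 (range to 8.63), and passed in none. Total counts in place of TMM moved the median of all genes by 0.10 for GM-CSF against medium and by -0.17 for TNF against GM-CSF. Of the values for receptors, regulators and lists, 1936 kept their call and direction or stayed within 1.5-fold, 2 lost a call, 1 gained one and 49 counts moved further. The cause of these changes was not tested. Depth limits Cxcl9 and Cxcl11 outside the TNF libraries, and the calls of Cxcl10 and Ccl5 in brain tissue rest on 119 and 105 counts with LPS.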
